A study of Mus musculus with 20 samples.

Results

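The enzymes that break down fatty acids and make ketone bodies were examined as 31 genes, of the 18193 genes with a probe set of their own on these mouse liver arrays. The members were taken from a list of gene names, with 1 probe set for each gene, the one with the highest mean over all 20 arrays. Of them, 30 had a probe set that names only that gene, and all 30 passed the filter on low values. The expression of Acsl1, which activates long-chain fatty acids, was not analysed here, and only its promoter window was searched. By site, 19 of the measured genes encode mitochondrial enzymes and 7 encode peroxisomal ones (Crot, Decr2, Ehhadh, Hsd17b4, Acaa1a, Acaa1b and Pecr). Crat and Eci2 act at both sites, and Ppara and Acsl5 were kept apart.

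All 20 mice were male C57BL/6J, an inbred laboratory strain, with no transgene or deletion named in the labels. They arrived at 3 weeks of age and ate a low-fat diet (10 kcal% fat) for acclimation. In the HFD group, 10 mice then ate a diet with 45 kcal% fat for 4 weeks. In the MSXH group, 10 mice ate the same high-fat diet with 0.05% of MSXH, a maple syrup extract. Every liver was taken on day 30 after a 16 h fast from mice labelled 8 weeks old, so both groups were fasted and both were fed fat. The low-fat and 0.02% extract groups named in the protocol were not analysed here, so no value below compares high-fat with low-fat feeding or fasted with fed mice. Whole liver was used, in which fewer cells of a type and less RNA per cell cannot be told apart.

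During a fast the liver takes up fatty acids released from adipose tissue. Long-chain acyl groups enter mitochondria on carnitine and are shortened there by a repeated cycle of dehydrogenation, hydration, a second dehydrogenation and thiolysis, with the electrons passed to the electron transfer flavoprotein. Acetyl-CoA from this cycle feeds ketone body synthesis, while peroxisomes shorten very-long-chain and branched acyl groups and pass the products on. The nuclear receptor PPAR-alpha, encoded by Ppara, is activated by fatty acids and drives many of these genes in the fasted liver.

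The deposited values were taken as log2 levels and are strongly compressed between arrays: the median SD of a probe set over the 20 arrays was 9.34e-06. Each difference between diets, MSXH minus HFD, is therefore expressed in pooled SD units as Hedges' g with a 95% interval, and values of single mice are in SD units of the gene over all 20 mice. Neither can be read as a fold change. The hepatocyte markers Alb, Apoa1, Ttr, Apob, Serpina1c, Cyp2e1, Tat and Fgb had mean log2 levels from 11.4 to 14.7, all above the filter. The labels call the arrays biological replicates, and permutation and Wilcoxon p-values rest on the spread between these mice. In limma the variance of a gene is also drawn toward that of all genes tested. This raises p for genes of very small spread, such as Alb (g 0.40, limma unadjusted p = 0.973) and Etfb, described below.

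Promoter sequences are shown first for the genes whose values are described most closely below. RefSeq promoter windows (build GRCm38.p6, 250 bases before to 50 after each start) were found for 26 of the 31 genes, in 28 windows. Hadha and Hadhb encode the alpha and beta subunits of the mitochondrial trifunctional protein, and their starts lie 273 bases apart on chromosome 5, pointing away from each other. A start of another gene in that divergent arrangement within that distance was found for 9.04% of the 27025 genes with a window. The stretch before the Hadhb start, at chr5:30155003-30155252 on the plus strand, is nearly all of what separates both starts, and capitals mark the letters GGGCGG, a GC box, 90 and 25 bases before the start:
Hadhb: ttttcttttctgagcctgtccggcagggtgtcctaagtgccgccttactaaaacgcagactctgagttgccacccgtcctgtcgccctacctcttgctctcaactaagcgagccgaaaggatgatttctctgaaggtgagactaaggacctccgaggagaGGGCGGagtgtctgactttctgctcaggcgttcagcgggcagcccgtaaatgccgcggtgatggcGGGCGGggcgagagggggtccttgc
Crot, which encodes peroxisomal carnitine octanoyltransferase, and Bdh1, which encodes the mitochondrial enzyme that turns acetoacetate into beta-hydroxybutyrate, had the closest covariation of any pair of members. The 100 bases before the Crot start are at chr5:8997147-8997246 on the minus strand. Those before the second of 2 Bdh1 starts are at chr16:31428653-31428752 on the plus strand. Capitals mark a CCAAT box and a GC box in Crot. The Bdh1 stretch held neither, although Bdh1 was among the genes with a GC box elsewhere in a whole window:
Crot: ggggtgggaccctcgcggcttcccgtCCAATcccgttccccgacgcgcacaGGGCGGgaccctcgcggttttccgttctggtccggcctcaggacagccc
Bdh1: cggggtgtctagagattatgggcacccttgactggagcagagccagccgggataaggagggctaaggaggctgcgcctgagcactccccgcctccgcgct
The letters AGGTCANAGGTCA, the direct repeat that PPAR-alpha binds together with RXR, were searched on both strands with up to 2 mismatches. They were found before the starts of Echs1 (chr7:140116482-140116541, minus strand) and Etfa (chr9:55512285-55512344, minus strand, with the match on the opposite strand), where capitals mark the match, 83 and 77 bases before the start:
Echs1: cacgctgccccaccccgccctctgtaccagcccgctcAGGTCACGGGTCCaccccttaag
Etfa: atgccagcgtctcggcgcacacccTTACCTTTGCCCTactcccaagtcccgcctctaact
This repeat was in 2 of the 28 windows of the members (7.14%) and in 3.86% of all 32851 windows. A single exact AGGTCA was in 4 of the 28 (14.3%), in the windows of Acadm, Acadvl, Cpt1a and Echs1, and in 16.3% of all windows. The GC box was in 21 of the 28 (75%) against 35.7% of all windows, CCAAT in 13 of 28 (46.4%) against 37.4%, and TATAAA in 0 of 28 against 13.6%. Those last 3 searches were added after values had been seen. A match is a run of letters in a short window and not a measured binding site.

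No enzyme gene passed the test between diets, and the levels of both groups overlapped for all 30, as they did for every gene tested (0 of 11728 without overlap). The limma test with Benjamini-Hochberg adjustment over 11728 genes called 0% of all genes and 0 of the 30 members, with a smallest adjusted p of 0.9998. At an unadjusted p under 0.05 it called 425 genes (3.62%), of which 221 were higher (1.88%) and 204 lower (1.74%) in the MSXH group, and again 0 of the 30 members. The exact Wilcoxon test called 399 genes at that unadjusted level, none after adjustment, and 1 member. By direction, 22 of the 30 members had a lower mean in the MSXH group, where 50.6% of all genes tested did. The median g was -0.19 over the members and -0.01 over all genes. Among mitochondrial enzymes 16 of 19 were lower with a median g of -0.32, and among peroxisomal ones 5 of 7 were lower with a median of -0.18. Genes of a pathway covary between mice, so these counts are not independent and carry no test.

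**Figure D1:**
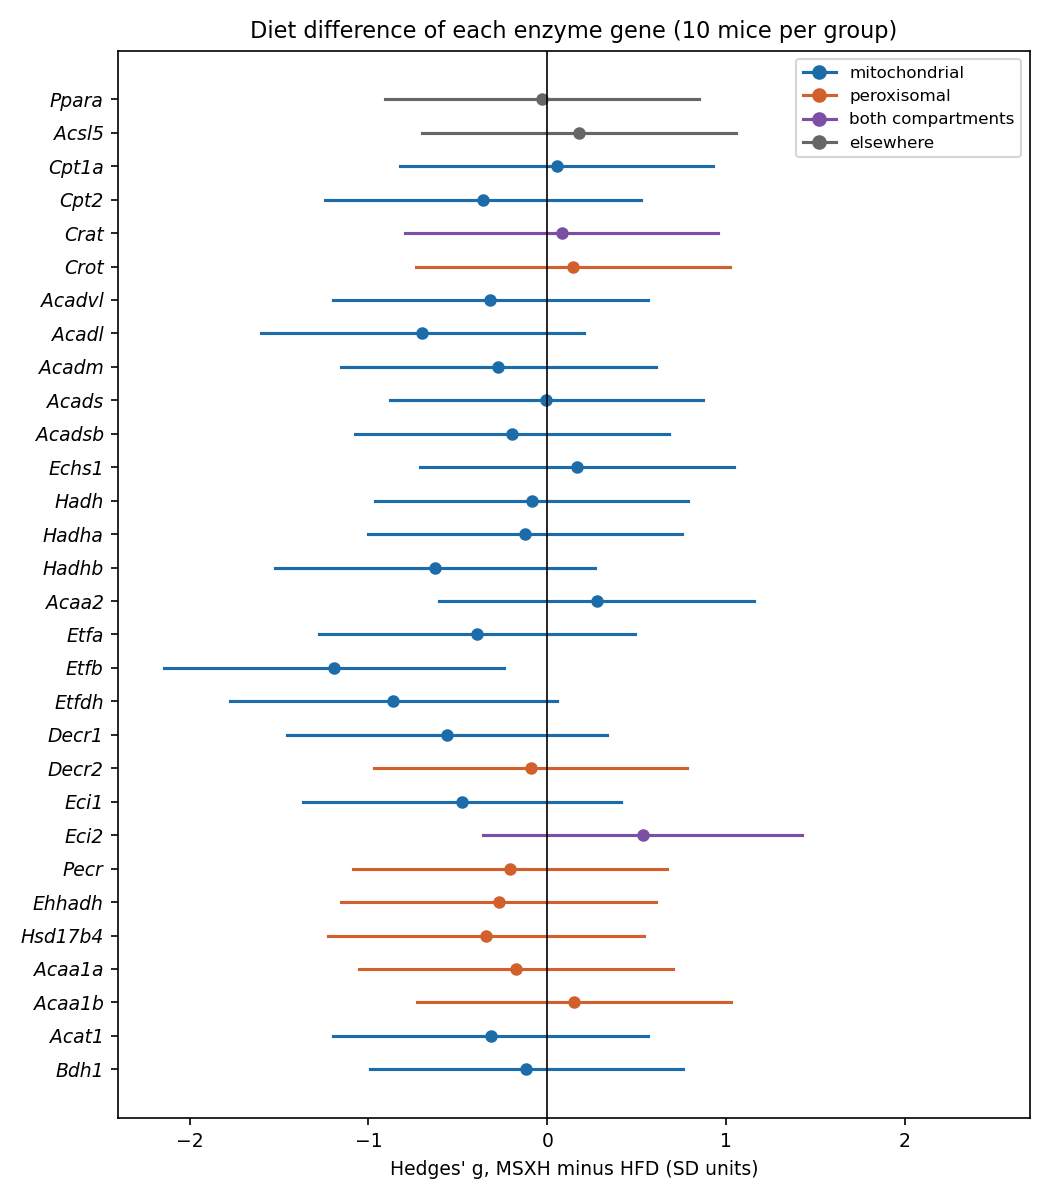
Hedges' g (x axis, MSXH minus HFD, SD units) of each of the 30 genes, ordered by role, with bars for the 95% interval and colours for the site of the enzyme. The interval of Etfb lies below 0 (-2.15 to -0.24), and the other 29 intervals include 0.

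Etfb and Etfdh had the lowest g of the 30 genes, while Etfa lay above Acadl, Hadhb, Decr1 and Eci1. Etfa and Etfb encode the subunits of the electron transfer flavoprotein, which takes electrons from the acyl-CoA dehydrogenases, and Etfdh encodes the membrane enzyme that passes them to ubiquinone. For Etfb, the HFD mice ran from -0.80 to 2.84 with a median of 0.48, and the MSXH mice from -1.92 to 0.16 with a median of -0.35. The ranges overlapped, but the HFD median was above every MSXH mouse (0 of 10 reached it). Etfb had a g of -1.20 (95% interval -2.15 to -0.24). A permutation test of that gene alone gave an unadjusted p of 0.00721 and the exact Wilcoxon test 0.0185, while limma gave an unadjusted p of 0.0905 and an adjusted p of 0.9998. Etfb is described for its low g, and the permutation and Wilcoxon p-values do not allow for that choice among 30 genes.

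Etfdh ran from -0.86 to 2.02 in HFD mice (median 0.46) and from -1.36 to 1.32 in MSXH mice (median -0.56). Only 2 of 10 MSXH mice were above the HFD median, and g was -0.86 (-1.78 to 0.06, permutation p = 0.0601). Etfa ran from -2.0 to 1.84 in HFD mice (median 0.16) and from -1.22 to 1.01 in MSXH mice (median -0.34), with both groups spread over the same range and a g of -0.39 (-1.28 to 0.49). These genes had some of the smallest spreads of any gene, with SDs over the 20 mice of 8.71e-07 for Etfa, 9.46e-07 for Etfdh and 1.33e-06 for Etfb, which is 87.1 to 133 steps of the last decimal deposited (1e-08). After quantile normalization Etfb had a g of 0.0 and Etfdh a g of 0.43, so that neither direction held there. Without the electron transfer genes, 13 of 16 mitochondrial genes were lower, with a median g of -0.23.

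**Figure D2:**
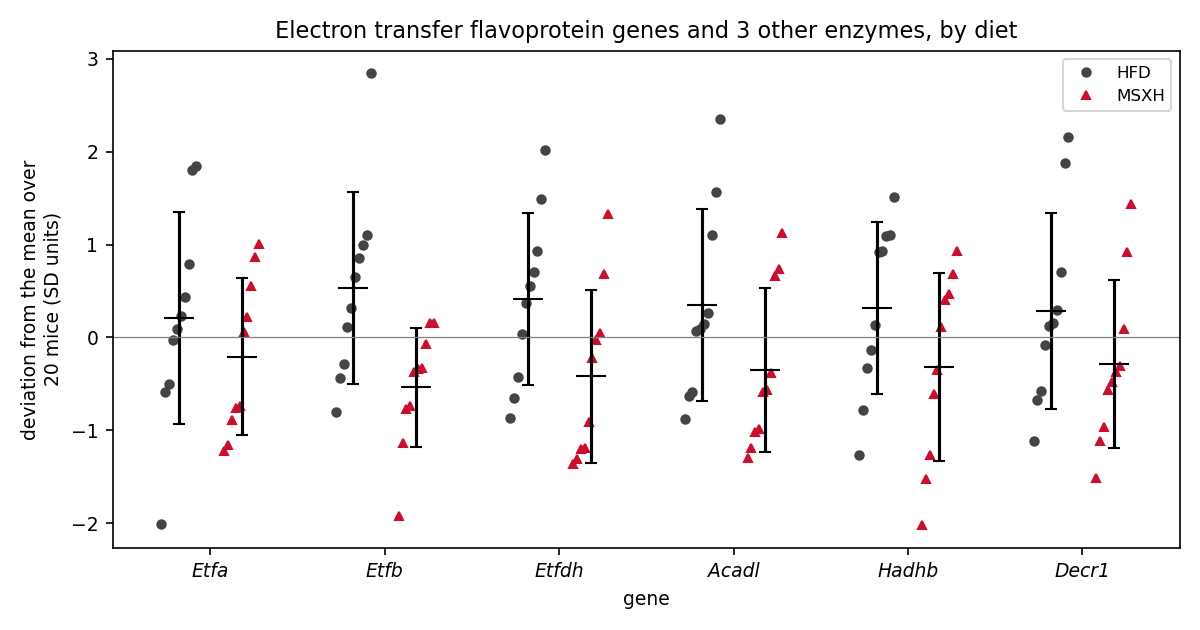
Values of Etfa, Etfb, Etfdh, Acadl, Hadhb and Decr1 in each of the 20 mice (y axis, SD units from the mean of all mice), with HFD mice as circles and MSXH mice as triangles, sorted by value within each group, and black bars for the mean and SD of each group. The groups overlap in every gene shown, and the highest Etfb value of an MSXH mouse is 0.16 against 2.84 in an HFD mouse.

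The regulator Ppara ran from -1.72 to 1.88 in HFD mice (median 0.17) and from -1.99 to 0.99 in MSXH mice (median 0.29), with a g of -0.03 (-0.91 to 0.85). Acsl5, which activates long-chain fatty acids to acyl-CoA, had a g of 0.18 (-0.70 to 1.06).

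Entry into mitochondria begins with Cpt1a, the rate-limiting carnitine palmitoyltransferase of the outer membrane. Cpt1a ran from -1.35 to 2.30 in HFD mice (median -0.10) and from -1.55 to 1.34 in MSXH mice (median -0.03), with a g of 0.05 (-0.82 to 0.93). Its other 2 probe sets gave -0.66 and -0.42 and correlated with the one used at r = 0.23 and 0.08, so the probe sets of this gene disagree. Cpt2, the inner-membrane partner, had a g of -0.36 (-1.24 to 0.53), with MSXH replicate 10 at 2.76 above all other mice. Crat, which handles short acyl groups, was at 0.08 and Crot at 0.14.

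The 5 acyl-CoA dehydrogenases, the first step of the cycle, had g below 0 in the probe sets used. Acadl, which acts on long chains, ran from -0.88 to 2.35 in HFD mice (median 0.12) and from -1.29 to 1.13 in MSXH mice (median -0.58). The groups overlapped over most of their range, with 3 of 10 MSXH mice above the HFD median, and g was -0.70 (-1.60 to 0.20). A second Acadl probe set gave 0.72 and correlated with the first at r = 0.18, and the mean of both gave 0.08. This direction thus depends on the probe set. The second one had a mean level of only 6.13, below the filter of 6.505, against 12.1 for the one used. Acadvl for very long chains was at -0.32, Acadm for medium chains at -0.27, Acadsb for short branched chains at -0.19 and Acads for short chains at -0.0041, which changed sign in 11 of the 20 fits that left out a mouse.

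The later steps went both ways. Hadhb ran from -1.27 to 1.51 in HFD mice (median 0.53) and from -2.02 to 0.93 in MSXH mice (median -0.12), with 2 of 10 MSXH mice above the HFD median. Its g was -0.63 (-1.53 to 0.27), with its other probe sets at -0.61 and 0.15, while its partner subunit Hadha was at -0.13. The hydratase Echs1 was at 0.16, the short-chain hydroxyacyl-CoA dehydrogenase Hadh at -0.09 and the thiolase Acaa2 at 0.28. Other Hadh probe sets gave 0.08 and -0.08. Among the enzymes that prepare unsaturated acyl groups, the mitochondrial reductase Decr1 was at -0.56 and the isomerase Eci1 at -0.48. The peroxisomal reductase Decr2 was at -0.09, Pecr, a peroxisomal trans-2-enoyl-CoA reductase, at -0.21, and Eci2 at 0.54 (-0.36 to 1.43), the highest g among the members. A second Pecr probe set gave 0.24.

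Of the peroxisomal core enzymes, the bifunctional proteins Ehhadh and Hsd17b4 were at -0.27 and -0.34 and the thiolases Acaa1a and Acaa1b at -0.18 and 0.15. A second Hsd17b4 probe set gave -1.15 and correlated with the first at r = 0.21. In ketone body metabolism, Acat1, which joins acetyl-CoA units, was at -0.32, with its other probe sets at -0.89 and -0.59. Bdh1 was at -0.12, with its second probe set at 0.06. The 95% intervals of the members reached 0.877 to 0.952 SD units to each side, so a difference of most of an SD between the diets is within the error of these 20 arrays.

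Other genes of the pathway gave no call either. Of 49 listed, 42 were tested, of which 17 had a higher and 25 a lower mean in the MSXH group, with a median g of -0.05 and 0 at an unadjusted p under 0.05 in limma. The acylcarnitine carrier Slc25a20 was at -0.22, the PPAR-alpha target Cyp4a14, a microsomal omega-hydroxylase, at -0.12, the pyruvate dehydrogenase kinase Pdk4 at 0.07, the fasting hormone Fgf21 at -0.05 and the coactivator Ppargc1a at 0.03.

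The members differed widely in their spread over all 20 mice on the deposited scale. Bdh1 had an SD of 0.00185, above 98.2% of the genes tested, Crot 0.000978 (97.1%), Ehhadh 0.00041 (94.8%), Pecr 0.000323 (93.9%) and Ppara 0.000141 (89.4%). The electron transfer genes and Eci2 (0.819%) were at the other end. The median percentile was 28.2 for mitochondrial and 67.1 for peroxisomal genes. Averaged in SD units over the 19 mitochondrial genes, HFD mice ran from -0.828 in replicate 9 to 0.952 in replicate 5, and MSXH mice from -0.947 in replicate 5 to 0.285 in replicate 8. Over the peroxisomal genes HFD mice ran from -0.866 to 0.691, again with replicate 9 lowest and replicate 5 highest, and MSXH mice from -0.656 to 0.258.

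**Figure D3:**
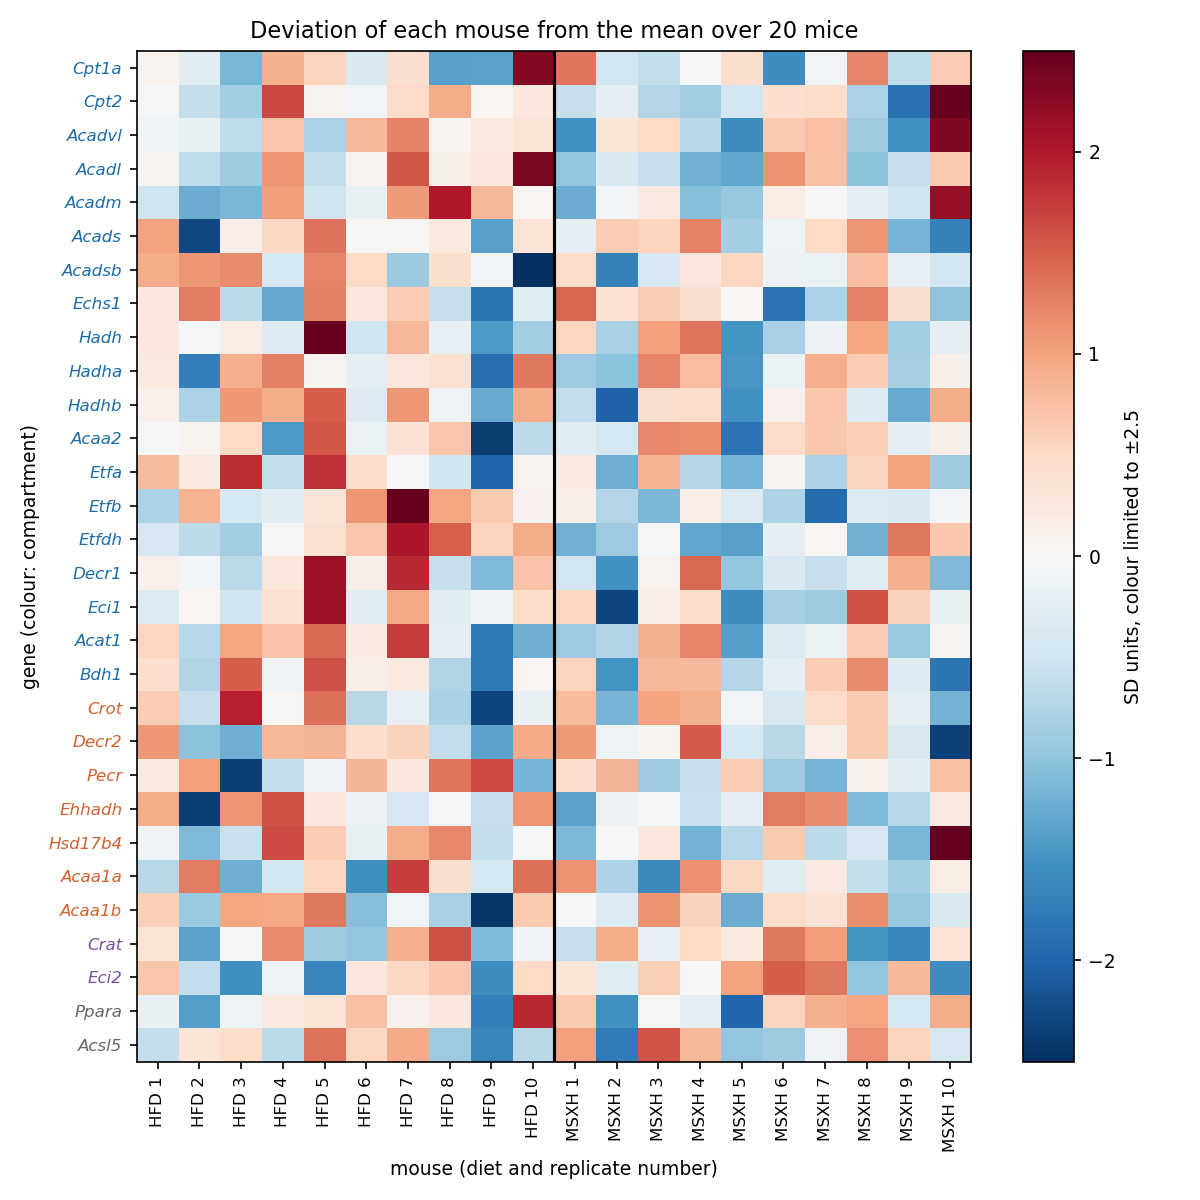
Value of each of the 30 genes (rows, ordered by site) in each of the 20 mice (columns, by diet group). Colour shows the SD units from the gene's mean over all mice, limited to 2.5 either way. HFD replicate 9 is low in Crot (-2.30), Acaa2 (-2.37) and Acaa1b (-2.44) and high in Pecr (1.64).

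Whether enzymes of 1 step, complex or site covary was asked over the 20 mice after the mean of each diet group had been removed. Of 26 pairs listed by enzyme role, 24 could be tested, and 6 had an adjusted p under 0.05 (permutations within diets, Benjamini-Hochberg over the 24), all with r at or above 0.58, which 2.8% of all pairs of genes reached. All 6 were positive, had the same sign within each diet, and passed by rho as well. Hadha and Hadhb, whose starts lie on either side of the stretch printed above, had r = 0.81 and rho = 0.70. The two-sided permutation p was 3.0e-05 and the adjusted p 0.00072. Within diets r was 0.80 in HFD and 0.82 in MSXH mice, and it was 0.74 when the 2 mice most extreme in Hadha were left out.

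Among the dehydrogenases of the first step, both listed pairs passed. Acadvl and Acadl had r = 0.70 and rho = 0.76 (permutation adjusted p = 0.00204), with 0.71 in HFD and 0.79 in MSXH mice and 0.68 without the 2 farthest mice. Acadm and Acadl had r = 0.58 and rho = 0.76 (permutation adjusted p = 0.0365), with 0.50 and 0.68 within diets and 0.69 without the 2 farthest mice. The ketone body genes Acat1 and Bdh1 had r = 0.65 and rho = 0.69 (permutation adjusted p = 0.0231), with 0.77 and 0.52 within diets and 0.61 without the 2 farthest mice.

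The thiolase genes Acaa2 and Hadhb had r = 0.61 and rho = 0.63 (permutation adjusted p = 0.0295), with 0.51 and 0.74 within diets. When the 2 mice most extreme in Acaa2 were left out, r was 0.40, so much of this relation rests on those mice. The mitochondrial and peroxisomal reductases Decr1 and Decr2 had r = 0.61 and rho = 0.67 (permutation adjusted p = 0.0300), with 0.71 and 0.50 within diets and 0.50 without the 2 farthest mice. When each mouse was left out in turn, Hadha with Hadhb and Acadvl with Acadl stayed past the threshold in all 20 fits, Acat1 with Bdh1 in 18, Acaa2 with Hadhb and Decr1 with Decr2 in 16 each, and Acadm with Acadl in 9. The count of called pairs was 2 without HFD replicate 5, 2 without HFD replicate 9 and 3 without MSXH replicate 4. With all probe sets of a gene averaged, 2 pairs passed, Hadha with Hadhb (r = 0.64) and Ehhadh with Hsd17b4 (r = 0.63).

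Several textbook partners did not pass. Etfa and Etfb, the subunits of 1 protein, had r = -0.19 (rho = -0.18, permutation adjusted p = 0.592). Cpt1a and Cpt2 had r = 0.17 (rho = 0.14, permutation adjusted p = 0.592), and the peroxisomal thiolases Acaa1a and Acaa1b had r = -0.04 (rho = -0.04, permutation adjusted p = 0.904). Acaa1a and Acaa1b are near-identical copies whose probes can share signal. Ppara with its target Cpt1a had r = 0.47 (rho = 0.46, permutation adjusted p = 0.148) and with Ehhadh r = 0.39 (rho = 0.27, permutation adjusted p = 0.210). Cpt1a and Ehhadh had r = -0.02 over all mice (rho = -0.03, permutation adjusted p = 0.948), 0.36 in HFD and -0.65 in MSXH mice, and the difference between diets was not tested.

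**Figure D4:**
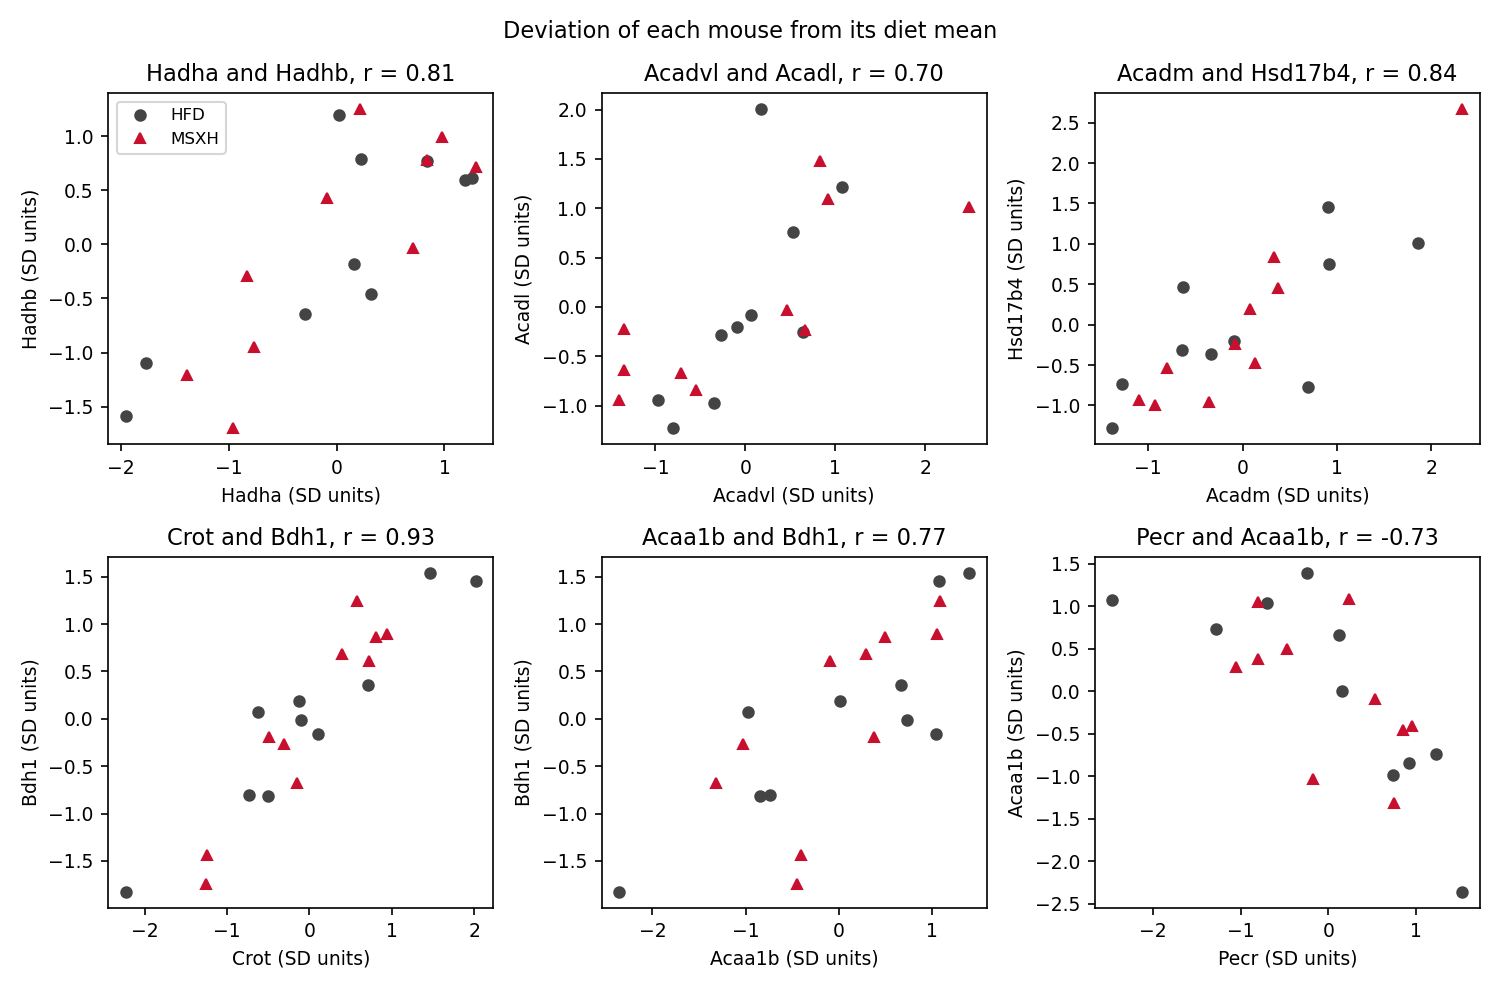
Deviation of each mouse from its diet mean (both axes, SD units) for 6 pairs of genes, with HFD mice as circles and MSXH mice as triangles. The r values run from -0.73 (Pecr and Acaa1b) to 0.93 (Crot and Bdh1), and Crot and Bdh1 rise together among the mice of each diet.

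Over all 435 pairs of members, 29 (6.67%) had r at or above 0.7, against 0.668% of the 68767128 pairs of genes tested, and 4 (0.92%) had r at or below -0.7, against 0.32%. The count at or above 0.7 was 20 without HFD replicate 9 (4.60%, all genes 0.716%) and at most 35 without any other mouse. The median r was 0.18 over members and 0.013 over all pairs of genes. It was 0.23 within the mitochondrial genes, 0.06 within the peroxisomal genes and 0.14 between both sites. Pairs that cross the sites reached 0.7 in 11 of 133, and pairs within the mitochondrial genes in 11 of 171.

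The closest pair was chosen after its value was seen: Crot and Bdh1 had r = 0.93 and rho = 0.93, with a permutation p of 1.0e-05, the smallest that 100000 permutations can give, and 0.00326 adjusted over the 435 pairs. Within diets r was 0.95 in HFD and 0.95 in MSXH mice, and it was 0.92 without the 2 farthest mice. A second Bdh1 probe set correlated with the first at r = 0.93. A second Crot probe set correlated with the first at r = 0.16, but its mean level was 6.75 against 11.9 for the first.

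The remaining pairs were also picked by their values and describe the same mice. With Acadm, 5 genes had r of 0.5 or more: Cpt2, Acadvl, Acadl, Etfdh and the peroxisomal Hsd17b4, with a median r of 0.67 among these 6 genes. With Bdh1, 13 genes did: Acsl5, Crot, Acads, Hadh, Hadha, Hadhb, Acaa2, Etfa, Decr1, Decr2, Eci1, Acaa1b and Acat1, with a median of 0.58 among these 14. The medians within the sets include the pairs that defined them, so they partly follow from how the sets were picked. Between both sets the median was -0.11. Each set thus holds mitochondrial and peroxisomal genes: 5 and 1 in the first, 10 and 3 in the second, with Acsl5 in neither class. In the first set, Cpt2 with Hsd17b4 had r = 0.86 and Acadm with Hsd17b4 r = 0.84, which both came to 0.75 without MSXH replicate 10, the mouse highest in all 3 genes.

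Outside the listed pairs, Ppara had r = 0.73 with Hadha and 0.70 with Hadhb (permutation adjusted p over the 435 pairs = 0.00886 and 0.0128). By rho, which was 0.51 and 0.56, neither passed (permutation adjusted p = 0.117 and 0.0897), and r was 0.58 in both without the 2 mice most extreme in Ppara.

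Pecr had a negative r with every gene of the second set, but a weak one with some, such as Eci1 (-0.13) and Decr2 (-0.22). The strongest were -0.73 with Acaa1b, -0.71 with Crot, -0.70 with Hadha and -0.67 with Bdh1. Of these, Acaa1b and Crot encode peroxisomal enzymes, as Pecr does. Outside that set, Pecr had r = -0.61 with the peroxisomal Ehhadh. The other dehydrogenases did not follow Acadl: Acadsb had r = -0.77 with it (rho = -0.85), with -0.96 in HFD and -0.41 in MSXH mice, and Acads had r = -0.03. Acadsb also had r = -0.46 with Acadvl and -0.40 with Acadm.

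**Figure D5:**
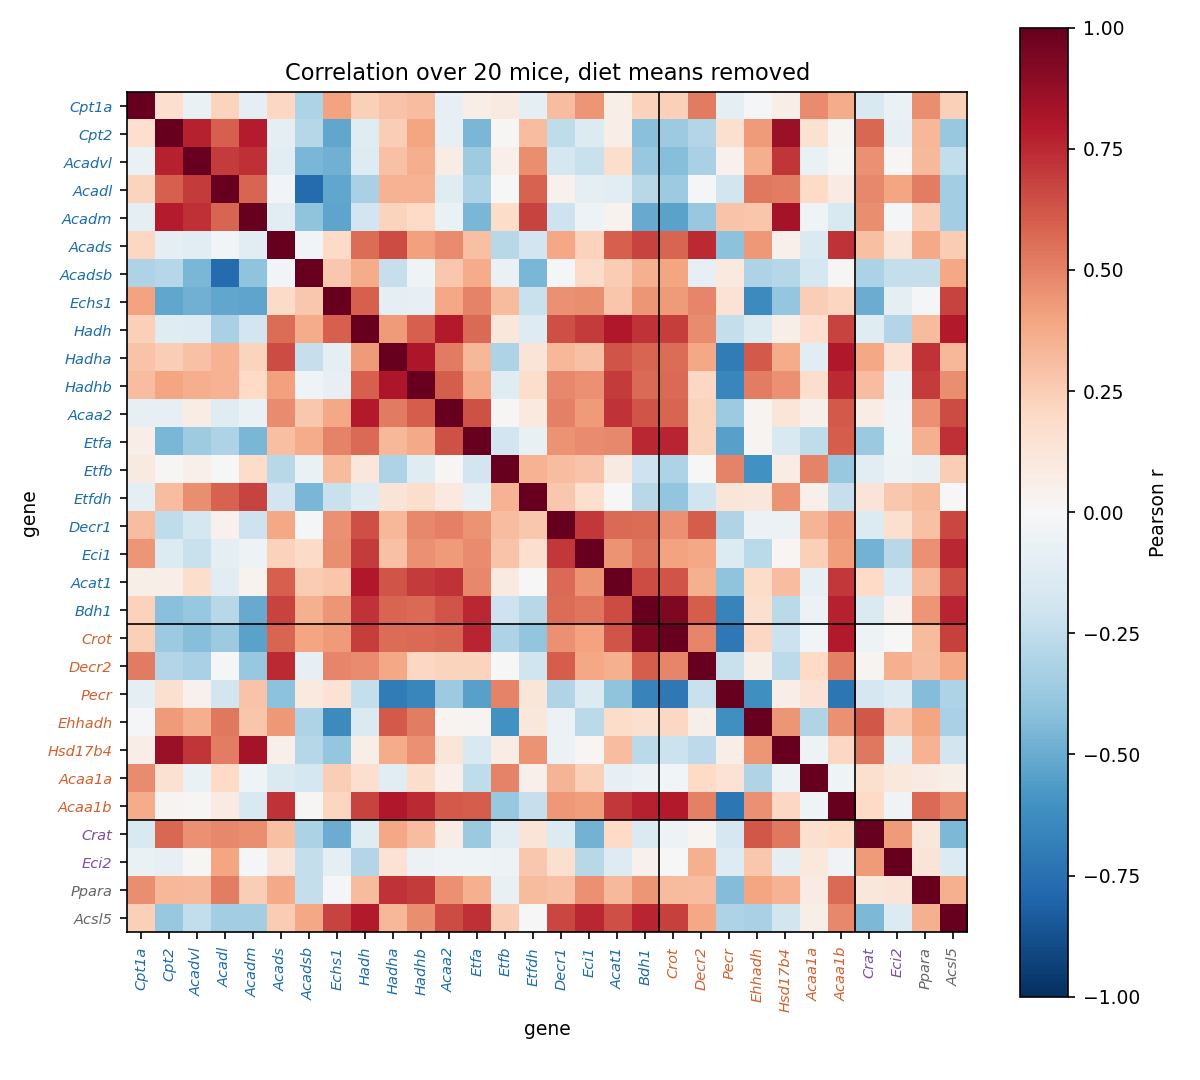
Pearson r over the 20 mice, after removal of the diet means, between each pair of the 30 genes, on a colour scale from -1 to 1. Rows and columns are ordered by site. Positive blocks join genes of both sites, and the row of Pecr is negative with Acaa1b (-0.73), Crot (-0.71) and Hadha (-0.70).

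A measure of RNA quality moved with some genes of these sets and hardly with others. The difference between the 3' and 5' control probe sets for actin, which grows when RNA copies are shortened, correlated with the first set at r from -0.01 (Etfdh) to 0.59 (Cpt2) and with the second from -0.75 (Etfa) to -0.03 (Hadhb), as a description over the 20 mice. With it regressed out, the median r was 0.63 in the first set, 0.57 in the second and 0.0003 between them, and Crot with Bdh1 had r = 0.91. Between diets this measure had a g of 0.49 (permutation p = 0.268), and with it as a covariate the median g of the members was -0.08.

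Of the markers of other liver cells, 6 of 6 endothelial genes had a higher mean in the MSXH group (median g 0.57) and 5 of 6 Kupffer cell genes a lower one (median g -0.17), none at an unadjusted p under 0.05. The mean endothelial value ran from -1.09 to 0.43 SD units in HFD mice and from -1.15 to 1.36 in MSXH mice. The Kupffer value ran from -0.79 to 1.46 in HFD and from -2.16 to 1.70 in MSXH mice. Stellate genes were higher in 4 of 5, cholangiocyte genes in 1 of 2, lymphocyte genes in 0 of 2, red cell genes in 2 of 3 and acinar genes in 0 of 2, and 0 of the adipocyte genes passed the filter. Only Bpgm, a red cell enzyme (g 0.98), had an unadjusted p under 0.05 in limma (0.0310). The part of other cell types in the values above was not tested.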

How the data were processed

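Each of 20 mice gave 1 liver RNA sample and 1 array. Per the labels, the authors made biotin-labelled copies of 200 ng of total RNA with a 3' IVT kit, so the signal comes mainly from transcript 3' ends. The table the authors deposited holds 45101 probe sets, read here as log2 levels because of their range (5.2 to 14.96). How probes were summarised and normalized is not given in the sources used here, and signal over background is unknown, so the number of arrays limits the precision. The platform annotation names 1 gene for 34945 probe sets. The probe set with the highest mean represented each of 18193 genes, and 11728 had a mean at or above the median of the probe sets (6.505).

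The diets were compared by limma 3.58.1 in R 4.3.3 (Benjamini-Hochberg over all genes, threshold 0.05). Pairs were tested in Python 3.11.15 with numpy 2.4.6 and scipy 1.17.1 by 100000 permutations of mice within diets, two-sided. Both procedures were tested on simulated data. Figures used matplotlib 3.10.9. Every member is named; other pathway genes were named as fixed examples or at an unadjusted p under 0.05. The members, lists, pairs and tests were chosen with earlier results of these data known. Alternatives covered scaling, filter, probe choice, variance model, array weights, replicate block, an RNA quality covariate, other tests and leaving out each mouse.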

Additional observations from a re-analysis of the deposited data

Results flagged for a closer look

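In 6 of 60 sets of 10 mice (30 genes in each diet group), 1 mouse stood apart from the nearest other by a share of the group's whole range above Dixon's 95% critical value for 10 samples. Chance alone gives about 5% of such sets, or 3. MSXH replicate 10 was the highest mouse of its group in Cpt2 (gap 0.496 of the range), Acadm (0.571) and Hsd17b4 (0.501), genes that covary with each other, so these are not independent. Acadsb had 1 low mouse in each group, HFD replicate 10 (0.470) and MSXH replicate 2 (0.502). Etfb had 1 high mouse, HFD replicate 7 (0.478), and its g was -1.18 without that mouse.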

How the results depend on the processing

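No member passed an adjusted p of 0.05 under any limma alternative, and the smallest adjusted p of a member was 0.604, with genes scaled to unit SD. That scaling called 3 genes of all tested and put 2 of 30 members (Etfb and Etfdh) and 4.97% of all genes at an unadjusted p under 0.05, against 0 members as deposited. The count was 1 of 30 with the mean of all probe sets (Hsd17b4, 3.33% of all genes), with trend and robust variance (Etfb, 3.66%), with the Wilcoxon test (Etfb, 3.4%) and with the permutation test (Etfb), which was run on the members alone. It was 0 to 1 when each mouse was left out (Cpt2 without MSXH replicate 10, 5.1% of all genes). The median g of the members ran from -0.25 to -0.09 over the leave-one-out fits, and 19 of 30 members kept their sign in all of them. Over the other alternatives it ran from -0.20 to 0.0. The median g of the mitochondrial genes ran there from -0.34 to -0.07 and that of the peroxisomal genes from -0.27 to 0.16, so the peroxisomal direction did not hold throughout. Replicate numbers did not pair the mice: same-numbered mice correlated at -0.13 to 0.37, with 3 of 10 pairs above 0.1 and 2 of 20 arrays closest to their namesake. With the replicate block, 0 genes were called and the median g was -0.20.

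Quantile normalization left 14 members with any variation. Of the listed pairs 2 could then be tested and 0 passed, against 6. There the median r was -0.032 within mitochondrial and -0.26 within peroxisomal genes, and 1 of 91 member pairs reached 0.7. Averaging all probe sets left 2 listed pairs, and leaving out single mice gave 2 to 7 listed pairs and 20 to 35 member pairs at or above 0.7. With actin regressed out, an alternative added after the data were seen, 4 listed pairs passed and 22 member pairs reached 0.7. The compression of the deposited values limits all of this: its cause was not tested.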
